A study of Mus musculus with 2 samples.

Results

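The genes described here are 10 genes of major histocompatibility complex (MHC) class I antigen presentation, H2-K1, H2-D1, B2m, H2-Q1, H2-Q2, H2-T3, Tap1, Tap2, Tapbp and Nlrc5. They were taken by symbol from the gene lists of both deposited matrices, in which all 10 occur among 54658 symbols. The study asked how the loss of Dpf2, a subunit of the BAF chromatin remodelling complex, bears on the irradiated mouse gut, and measured spatial transcriptomes of intestinal sections of 10 µm. There are 2 sections, 1 labelled WT mice and 1 labelled DPF2 KO mice, and both genotypes had received 10 Gy of X-rays, so no unirradiated tissue enters any comparison. Strain, age, time after irradiation, stretch of gut, the deleted part of Dpf2 and the tissue that lost it are stated nowhere in these sources. The sections held 50970 and 88056 barcodes with 39824941 and 89754886 counts, at medians of 721 and 932 counts per barcode. With 1 section per genotype there is no replicate and no test was made: intervals (95%) cover counting error only, and differences below are differences between these sections.

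Dpf2 itself did not check the labels. It had 940 counts (23.6 CPM, counts per 1000000 counts of the section or region) where the genotype is wild type and 2333 counts (26.0 CPM) where it is DPF2 KO, a log2 ratio of 0.14 (0.03 to 0.25). The sections are therefore called WT-labelled and KO-labelled throughout, and ratios are KO-labelled over WT-labelled. Markers of gut tissue differed far more. All 20 markers of absorptive enterocytes were detected in both sections and all 20 were 2-fold or more higher in the KO-labelled section, with a median log2 ratio of 6.23 (range 3.17 to 9.85) and a summed share of 0.0782% against 4.18% of counts. Markers of Paneth cells, the defensin-secreting cells of the crypt base, held 9.03% against 0.579%, and markers of macrophages and dendritic cells 0.0573% against 0.0159%. Enterocyte markers are therefore given beside the results that move with them. Their part in those results was not tested, and in tissue sections fewer cells of a type and less RNA per cell cannot be told apart. Both sections share 45557 barcode names, which name positions on the array rather than cells.

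Class I molecules display peptides from the inside of a cell to CD8 T cells and natural killer cells. A heavy chain (classical H2-K and H2-D, or a nonclassical chain such as those of the Q and T regions) pairs with beta-2-microglobulin, the product of B2m, in the endoplasmic reticulum. The transporter made of TAP1 and TAP2 brings in peptides cut by the proteasome, tapasin (Tapbp) holds the empty heavy chain to the transporter, and NLRC5 activates transcription of the classical genes together with factors that bind their promoters. In the gut, the thymus leukaemia antigen encoded by H2-T3 is known as a nonclassical molecule of the epithelium that binds CD8 alpha homodimers on intraepithelial lymphocytes. It does not depend on the peptide transporter.

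Of the 10 genes, 8 lie on chromosome 17 within or beside the MHC (RefSeq annotation of GRCm38, the build that the submitters' processing notes name). Tapbp spans 33919478 to 33929290, H2-K1 33996012 to 34000619, Tap1 34187556 to 34197225 and Tap2 34204479 to 34216321. Further along come H2-D1 at 35263094 to 35267497, H2-Q1 at 35320525 to 35328142, H2-Q2 at 35342307 to 35346764 and H2-T3 at 36185571 to 36190151. B2m lies on chromosome 2 at 122147687 to 122153082 and Nlrc5 on chromosome 8 at 94434335 to 94527272. All are annotated as protein-coding. The heavy chains are paralogs with long stretches of near-identical sequence, and neither the aligner nor the treatment of reads that match several genes is given here, so the split of counts between H2-K1, H2-D1, H2-Q1, H2-Q2 and H2-T3 is uncertain.

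RefSeq promoter windows, 250 bases before to 50 bases after a start of transcription (GRCm38.p6), were matched for 7 of the 10 genes, not for H2-Q1, Tap2 and Nlrc5. The stretches below are shown because they set the classical H2-D1 and B2m, counted widely in both sections, beside H2-Q2 and H2-T3, scarce in the WT-labelled section. Each is 180 bases, 5′ to 3′ on the strand of the gene, and capitals mark matches on either strand to the motifs searched. H2-K1 has 2 windows, both inside its annotated span, and neither is printed.
H2-D1, chr17:35262914-35263093, strand +: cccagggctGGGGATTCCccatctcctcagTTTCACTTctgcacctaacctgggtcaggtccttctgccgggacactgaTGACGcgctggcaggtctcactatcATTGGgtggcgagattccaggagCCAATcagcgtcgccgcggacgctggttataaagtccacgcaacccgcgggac
B2m, chr2:122147507-122147686, strand +: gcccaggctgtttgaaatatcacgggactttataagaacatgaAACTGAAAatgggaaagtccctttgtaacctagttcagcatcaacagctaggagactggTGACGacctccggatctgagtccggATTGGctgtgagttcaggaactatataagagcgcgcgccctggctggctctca
H2-Q2, chr17:35342127-35342306, strand +: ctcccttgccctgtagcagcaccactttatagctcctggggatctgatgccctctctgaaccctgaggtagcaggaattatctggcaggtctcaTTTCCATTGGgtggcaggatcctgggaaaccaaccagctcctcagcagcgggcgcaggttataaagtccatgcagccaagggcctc
H2-T3, chr17:36190152-36190331, strand -: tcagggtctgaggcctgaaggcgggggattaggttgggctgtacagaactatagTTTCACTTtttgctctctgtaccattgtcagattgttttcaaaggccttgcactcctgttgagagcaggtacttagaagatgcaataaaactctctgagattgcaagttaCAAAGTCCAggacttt
The motifs were the interferon-response core TTTCNNTT (in 23.9% of 32851 windows of this length), GGGGATTCC, the core of an NF-kB site (0.25%), the CCAAT box, spelled by its name (37.4%), the core of the cAMP-response element, TGACG (20.8%), and CAAAGTCCA, a match to sites of the enterocyte and hepatocyte factor HNF4 (0.475%). They were chosen with the sequences in view, the HNF4 motif after a first look at the H2-T3 window, so a match is a description and not a binding site. H2-K1 and H2-D1 carried the same set in the same order, an NF-kB core, an interferon-response core, a cAMP-response core and a CCAAT box on both strands. B2m carried an interferon-response core 137 bases before its start, a cAMP-response core at 78 and a reversed CCAAT box at 53 bases before it. A reversed cAMP-response core lay 45 bases after it, outside the printed stretch. H2-Q2 carried an interferon-response core 86 bases before its start that overlaps a reversed CCAAT box, with no match to the NF-kB or cAMP-response core in the window. H2-T3 carried an interferon-response core 126 bases before its start and the HNF4 motif 16 bases before it, with no match to the other motifs. The windows of Tap1 and Tapbp held a CCAAT box, and that of Tap1 also a cAMP-response core.

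Between the whole sections, 7 of the 10 genes were higher in the KO-labelled section by 2-fold or more, 1 was lower by 2-fold or more and 2 lay within 2-fold. Of the 14516 genes whose counts in both sections add up to 200 or more, 15.7% were that much higher and 19.7% that much lower. The 10 genes, and the lists counted below, were chosen with earlier results of these data known. Their counts beside the shares of all genes are therefore descriptions and not tests. The median log2 ratio was 1.23 over the 10 genes and -0.18 over all genes tested. When defensin, ribosomal protein, immunoglobulin and haemoglobin genes were left out of the totals, the number higher was 5, since H2-K1 (0.85) and B2m (0.80) came in below 2-fold, and the background was 11.6% higher and 29.1% lower.

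**Figure D1:**
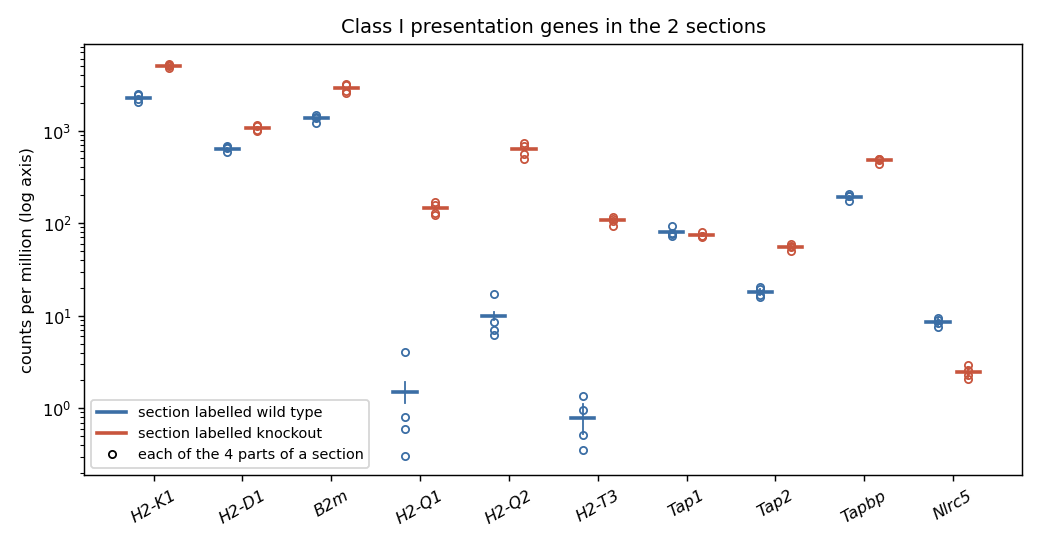
Level of each of the 10 genes in CPM (log axis) in both sections. Bars are whole sections with exact Poisson intervals at 95% (counting error only), and circles are the 4 parts of each section. Circles of the sections are apart for 9 genes and overlap for Tap1, and how often they are apart over all genes was not counted. H2-Q1, H2-Q2 and H2-T3 show the widest gaps and Nlrc5 is the gene whose circles are all lower in the KO-labelled section.

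The classical chains and their light chain were high in both sections and higher in the KO-labelled section. H2-K1, a classical heavy chain, had 2277 CPM (90678 counts) in the WT-labelled section and 5035 CPM (451920 counts) in the KO-labelled section, a log2 ratio of 1.14 (1.13 to 1.16). H2-D1, the other classical heavy chain, had 640 against 1070 CPM, a log2 ratio of 0.74 (0.72 to 0.76). B2m had 1355 against 2895 CPM, a log2 ratio of 1.10 (1.08 to 1.11). Each section was also divided along its position axes into 4 parts of similar barcode number, and for these 3 genes all parts of the KO-labelled section lay above all parts of the other. How often parts lie apart in this way over all genes was not counted. H2-K1 ranged over 2062 to 2458 CPM across the parts of the WT-labelled section and over 4695 to 5301 CPM across those of the KO-labelled section. The matching ranges were 589 to 675 and 995 to 1145 CPM for H2-D1, and 1205 to 1486 and 2536 to 3182 CPM for B2m.

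The nonclassical chains differed by far more. H2-Q2, a chain of the Q region, had 397 counts in the WT-labelled section and 56149 in the KO-labelled section, 9.97 against 626 CPM and a log2 ratio of 5.97 (5.83 to 6.12). H2-Q1 had 59 against 13067 counts, 1.48 against 146 CPM and a log2 ratio of 6.62 (6.25 to 7.01). H2-T3, the thymus leukaemia antigen, had 31 against 9626 counts, 0.778 against 107 CPM and a log2 ratio of 7.11 (6.60 to 7.66). All 3 ratios lie inside the range of the 20 enterocyte markers given above. Over the parts of the WT-labelled section, H2-Q1 ran from 0.307 to 4.04 CPM, H2-Q2 from 6.24 to 17.3 CPM and H2-T3 from 0.353 to 1.35 CPM. In the KO-labelled section the parts held 121 to 170 CPM of H2-Q1, 500 to 737 CPM of H2-Q2 and 92.2 to 117 CPM of H2-T3, with no overlap. The part of the WT-labelled section with the most H2-Q1, part 4, also held the most enterocyte markers, 0.164% of its counts against 0.0415% to 0.0554% in the other parts. Without that part the log2 ratios were 7.98 for H2-Q1, 6.41 for H2-Q2 and 7.54 for H2-T3. H2-Bl, annotated as a transcribed class I pseudogene, was looked up after its values were seen and had 22 against 3881 counts, a log2 ratio of 6.29 (5.69 to 6.97).

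The genes that load peptide did not move as a block. Tap2 had 18.1 CPM in the WT-labelled section and 55.8 CPM in the KO-labelled section, a log2 ratio of 1.62 (1.51 to 1.74). Tapbp had 192 against 477 CPM, a log2 ratio of 1.31 (1.28 to 1.35). Tap1, the partner of Tap2 in the transporter, had 80.2 against 74.5 CPM, a log2 ratio of -0.11 (-0.17 to -0.04) that turned to 0.08 when the sections were scaled by the median of gene ratios. It is the gene of the 10 whose parts overlapped, at 73.5 to 93.4 CPM against 70.8 to 79.4 CPM. The parts of Tap2 (15.8 to 20.5 against 49.6 to 60.2 CPM) and Tapbp (172 to 205 against 439 to 494 CPM) did not.

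Nlrc5, the activator of the classical genes, went the other way. It had 342 counts (8.59 CPM) in the WT-labelled section and 220 counts (2.45 CPM) in the KO-labelled section, 3.50-fold lower, with a log2 ratio of -1.81 (-2.06 to -1.56). Its parts held 7.59 to 9.53 CPM against 2.08 to 2.90 CPM. H2-K1, H2-D1 and B2m, which NLRC5 is known to activate, were thus higher in the section with the lower Nlrc5. In the WT-labelled section Nlrc5 was highest in squares rich in markers of B cells (18.1 CPM) and of macrophages and dendritic cells (14.2 CPM). These markers were lower in the KO-labelled section by 2-fold or more for 6 of 7 and 7 of 9 genes. Their part in the Nlrc5 difference was not tested.

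The other genes of the pathway were counted by list, over genes with 200 or more counts, against the same background of 15.7% higher and 19.7% lower. Of the immunoproteasome, the form of the proteasome that interferon induces, 4 of 5 subunits were at least 2-fold higher in the KO-labelled section, with log2 ratios of 1.59 for Psmb8, 1.33 for Psmb9, 1.15 for Psmb10 and 1.75 for the activator subunit Psme2. The activator subunit Psme1 was 0.12. The constitutive catalytic subunits that Psmb8, Psmb9 and Psmb10 replace lay within 2-fold and below 0, at -0.51 for Psmb5, -0.64 for Psmb6 and -0.78 for Psmb7. The medians were 1.33 for the immunoproteasome and -0.64 for the constitutive subunits.

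Of 6 genes of peptide loading and trimming, 2 were at least 2-fold higher and none lower, with a median log2 ratio of 0.53. These were Tapbpl, the tapasin-related peptide editor, at 1.69, and Pdia3, the disulfide isomerase of the loading complex, at 1.02. The chaperone Canx had 440 against 575 CPM (0.38), the trimming peptidase Erap1 0.56 and the folding sensor Uggt1 0.49.

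The other class I chains went both ways, so the direction of H2-Q1, H2-Q2 and H2-T3 was not shared by all their neighbours in the Q and T regions. Of 18 listed genes 17 were in the matrices and 13 had enough counts, of which 2 were at least 2-fold higher, 4 at least 2-fold lower and 7 within, with a median of -0.24. H2-Q7, the Qa-2 antigen, had 75.3 CPM in the WT-labelled section and 11.4 CPM in the KO-labelled section (log2 ratio -2.72), and its near-identical neighbour H2-Q6 was at -2.44. H2-M9, too sparse for the count, was at -2.93 on 115 and 34 counts. H2-T23, which encodes Qa-1, and Fcgrt, the neonatal Fc receptor of epithelium, were higher, at 1.69 and 1.92. The H2-Q genes are close copies, and how their shared reads were counted is not given.

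Among 16 genes that control class I transcription, 15 had enough counts, and 5 of these were at least 2-fold higher and none lower (median 0.24). The interferon-regulated activator Irf1 had 40.2 CPM in the WT-labelled section and 175 CPM in the KO-labelled section, a log2 ratio of 2.12. Ifngr2, a chain of the interferon gamma receptor, was at 2.08, its kinase Jak2 at 1.91 and Rfxank, a subunit of the factor through which NLRC5 reaches promoters, at 1.78. Ifngr1, the gene of this list with the most counts, was at 0.24. Ifng, the cytokine itself, had 2 and 1 counts; it and Irf2 (1.21), the remaining gene past 2-fold, were named after their values were seen.

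Class II presentation, which serves CD4 T cells, lay mostly within 2-fold. Of 7 genes 0 were at least 2-fold higher and 1 was lower (median 0.00). H2-Eb1 was at -1.16, H2-Aa at -0.66, H2-Ab1 at 0.63, and the invariant chain Cd74 had 256 against 166 CPM (-0.63). Of 7 receptors and homing molecules of cells that recognise class I, 4 had enough counts and 3 of these were at least 2-fold higher. Cd8a, whose homodimer is the ligand of the H2-T3 product, had 23 counts in the WT-labelled section and 344 in the KO-labelled section (log2 ratio 2.73, 2.12 to 3.41), while Cd8b1, the chain of conventional CD8 T cells, had 23 and 32 (-0.70, -1.51 to 0.14). Klrd1 and Cd160, receptors of natural killer cells and intraepithelial lymphocytes, were at 1.25 and 1.10, and the epithelial homing integrin Itgae at -0.51. The receptor genes Klrk1 (32 and 15 counts) and Klrc1 (18 and 9 counts), named after their values were seen, went the other way, at -2.27 (-3.26 to -1.34) and -2.17 (-3.51 to -0.94).

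**Figure D2:**
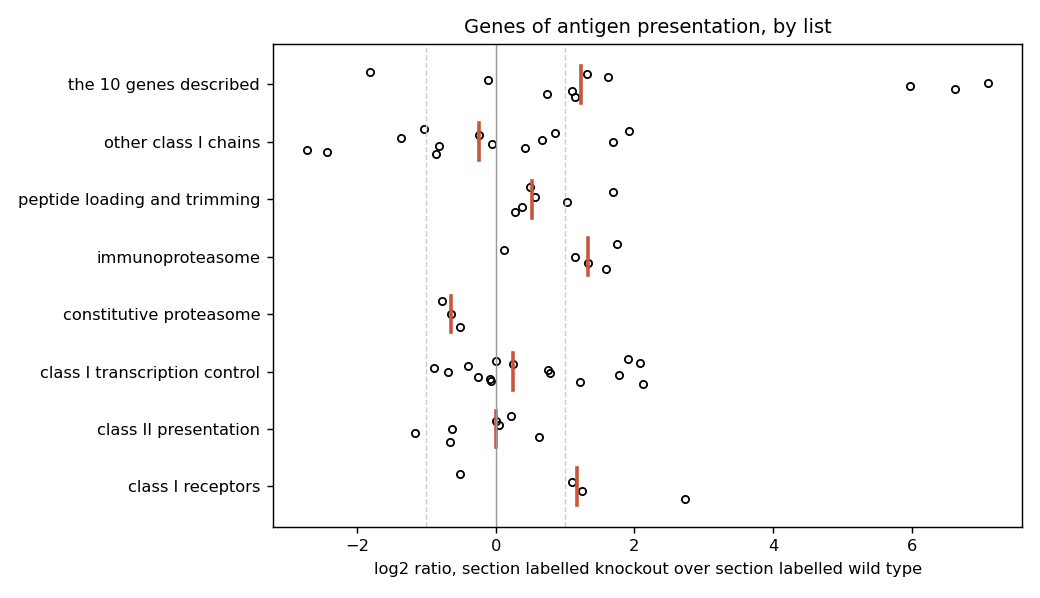
Log2 ratio of the KO-labelled section over the WT-labelled section for genes with 200 or more counts in all. Each circle is a gene, the red bar is the median of its list and dashed lines mark 2-fold. The immunoproteasome sits to the right of the constitutive proteasome, and H2-Q1, H2-Q2 and H2-T3 stand at 5.97 to 7.11.

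To place the genes in the tissue, barcodes were summed into squares with a side of 20 position units (the unit is not given), 1236 in the WT-labelled section and 2056 in the KO-labelled section, at medians of 45 and 46 barcodes. For each of 17 marker lists, the 10% of squares with the highest share of its counts (124 and 206 squares) are called rich in that cell type. A square holds several cells, so these are regions and not cell types. The same words stand for different tissue in the sections: enterocyte-rich squares held 0.345% of their counts in enterocyte markers in the WT-labelled section and 7.33% in the KO-labelled section, where even the smooth-muscle-rich squares held 2.199%.

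In the WT-labelled section, H2-Q1, H2-Q2 and H2-T3 were concentrated where enterocyte markers were left. H2-Q1 was 27.1-fold, H2-T3 7.85-fold and H2-Q2 3.95-fold higher in enterocyte-rich than in the other squares. They were 3 of the 10 genes at least 2-fold higher there, against 1.2% of 11599 genes, and 0 of 10 were 2-fold lower, against 0.793%. The enterocyte-rich squares held 42 of 55 H2-Q1 counts (76.4%), 15 of 31 H2-T3 counts (48.4%) and 125 of 390 H2-Q2 counts (32.1%), but 10.7% of all counts. The other 7 genes were 1.01-fold to 1.22-fold higher, a step so small that the direction turned for Nlrc5 (1.08-fold, 38 counts) with squares of side 40 or the highest 5% of squares, for Tapbp in parts 1 to 3 alone, and for B2m (0.963-fold), Tap2 (0.969-fold) and Nlrc5 (0.808-fold) in part 4 alone. Most of these squares lay in part 4. In parts 1 to 3 alone, a choice made after seeing the data, H2-Q1 was 17.8-fold higher on 6 and 9 counts, H2-T3 3.57-fold on 2 and 15, and H2-Q2 1.77-fold (log2 ratio 0.82, -0.11 to 1.63) on 13 and 197. In part 4 alone H2-Q1 was 20.3-fold, H2-T3 29.4-fold and H2-Q2 3.72-fold higher.

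**Figure D3:**
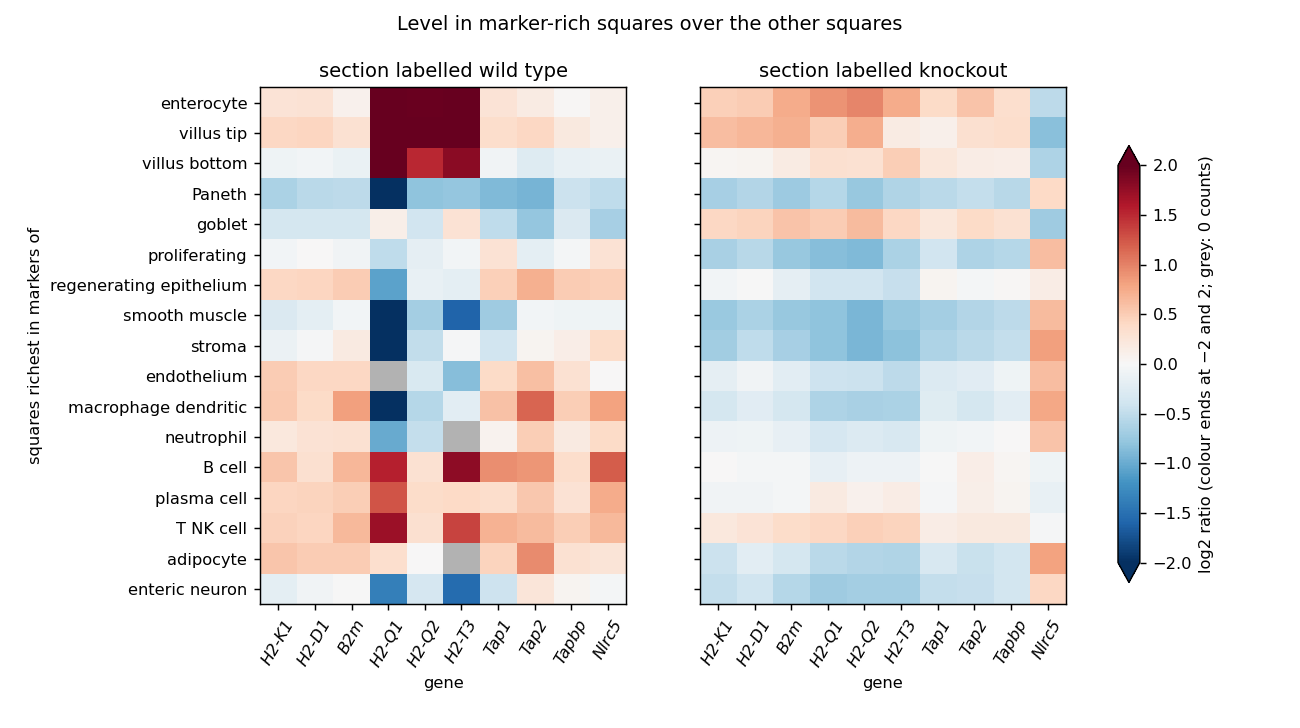
Log2 ratio of each gene in the squares richest in a marker list over the other squares of the same section, with colours ending at -2 and 2 and grey for 0 counts. In the WT-labelled section H2-Q1, H2-Q2 and H2-T3 stand out in the enterocyte and villus rows while B2m, Tap1, Tap2 and Nlrc5 are highest in immune rows. In the KO-labelled section 9 genes share the rows of the villus epithelium. Nlrc5, with only 219 counts over all squares of that section, is below its level elsewhere in those rows.

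The classical chains, B2m, the transporter and Nlrc5 peaked elsewhere in that section. B2m was highest in squares rich in macrophage and dendritic cell markers, at 2261 CPM, and H2-K1 reached 3157 CPM there, 3233 CPM in B-cell-rich squares and 3237 CPM in squares rich in adipocyte-list genes (of which Adipoq and Lep were at 0 in this section). Tap1 was highest in B-cell-rich squares (143 CPM), as was Nlrc5 (18.1 CPM, 2.33-fold over the other squares). Tap2 was highest in macrophage-rich and dendritic-rich squares (37.4 CPM, 2.24-fold). Paneth-rich squares were lowest of the 17 for H2-K1 (1548 CPM), H2-D1 (462 CPM), B2m (989 CPM), Tap1 (46.9 CPM), Tap2 (10.3 CPM), Tapbp (149 CPM) and H2-Q2 (6.15 CPM). CPM divide by all counts, and these squares were chosen for the highest share of Paneth markers, which held 9.03% of the section's counts. How far that share lowers the CPM of other genes there was not tested. Neighbours at the top of these orders differ little: the highest and the third highest H2-K1 values are 3237 and 3157 CPM.

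In a single area of the WT-labelled section class I genes were high together with markers of some immune cells, mainly B cells, macrophages and dendritic cells. Of 65 tiles with a side of 100 units, the tile with the most B2m (chosen by that value, 315 barcodes) had 4521 CPM against a median of 1354 CPM. It also ranked highest for H2-K1 (3903 CPM), H2-D1 (1099 CPM), Tap1 (239 CPM), Tapbp (274 CPM) and Nlrc5 (27.4 CPM), and H2-Q1, H2-Q2 and H2-T3 had 0 counts in it. B-cell markers held 0.267% of its counts against a median of 0.00266%, macrophage and dendritic cell markers 0.225% against 0.0556%, both the highest of all tiles, while its enterocyte share was the lowest. Markers of T and natural killer cells were also above their median (0.00939% against 0.00245%). Those of neutrophils (0.0223% against 0.0543%) and plasma cells (0.300% against 0.375%) were below theirs. The floor of 3 counts in its 255719 counts is well above the level of H2-Q1 in the section, so the 0 there limits little. In the KO-labelled section the tile with the most B2m (4858 CPM) ranked 2 of 92 for enterocyte markers (7.15%).

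In the KO-labelled section all of the 10 genes but Nlrc5 were highest in squares rich in enterocyte or villus tip markers. How many of all genes are highest there was not counted. B2m (4482 CPM), H2-Q1 (246 CPM), H2-Q2 (1098 CPM), H2-T3 (166 CPM), Tap1 (93.6 CPM) and Tap2 (78.7 CPM) were highest in enterocyte-rich squares, and H2-K1 (7321 CPM), H2-D1 (1600 CPM) and Tapbp (594 CPM) in squares rich in villus tip markers. Against the other squares these were modest steps, from 1.26-fold (Tapbp) to 1.96-fold (H2-Q2) in enterocyte-rich squares, so 0 of 10 genes passed 2-fold where 1.09% of 13120 genes did, and 0 of 10 were 2-fold lower where 21.5% were. With the highest 5% of squares H2-Q2 passed it. Nlrc5 was 0.70 of its level elsewhere in enterocyte-rich squares, on 19 counts and with an interval that includes 0 (log2 ratio -0.52, -1.29 to 0.16). It was highest in stroma-rich squares, at 4.02 CPM, closely followed by adipocyte-rich (3.99 CPM) and by macrophage-rich and dendritic-rich squares (3.95 CPM). The squares lowest in the other genes were those of muscle, stroma and dividing cells: H2-K1 was at 3157 CPM in smooth-muscle-rich squares and B2m at 1787 CPM in squares rich in proliferation markers.

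**Figure D4:**
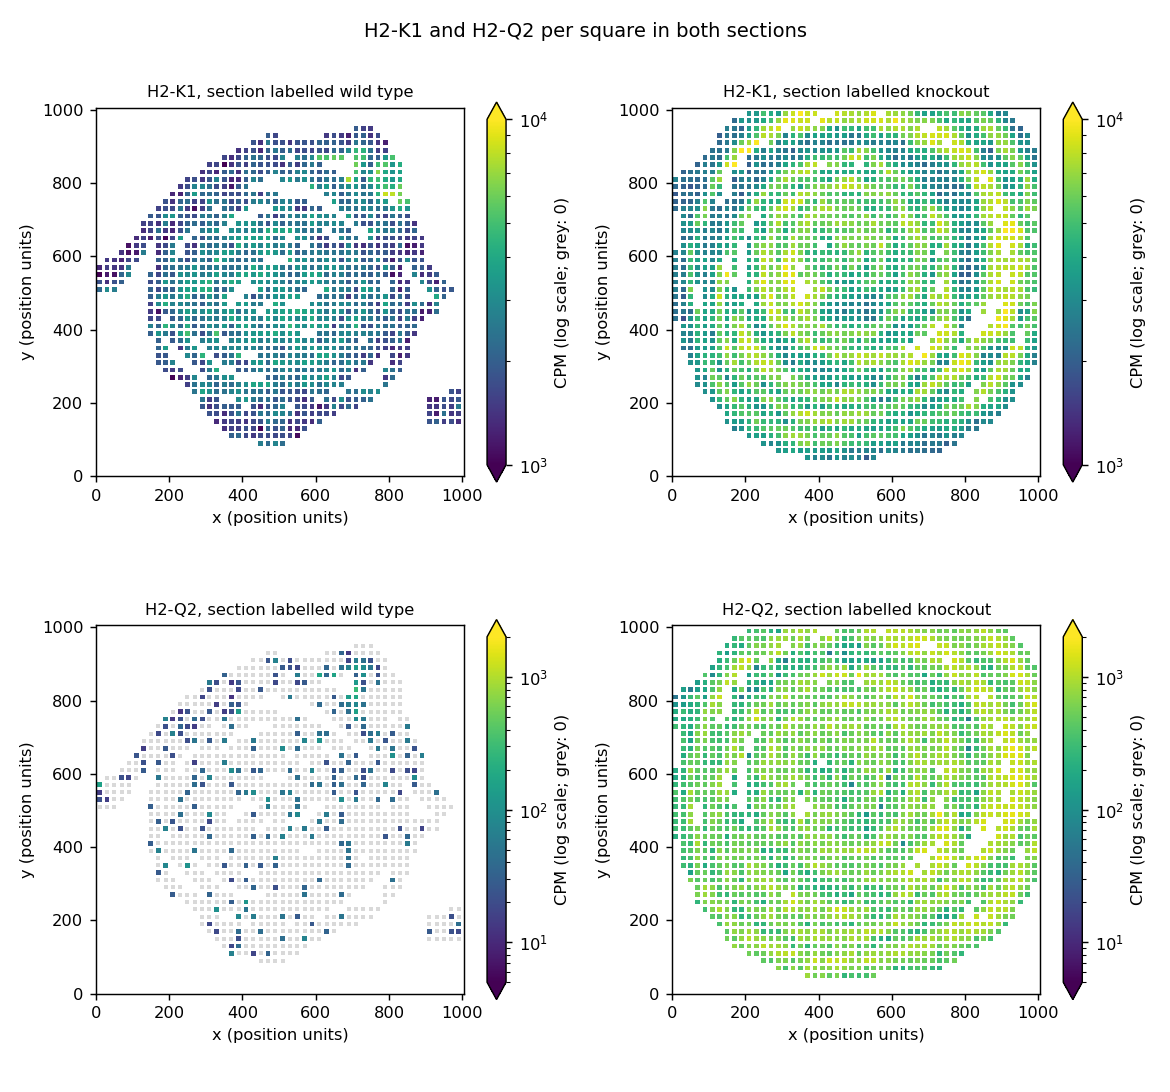
Level of H2-K1 (top) and H2-Q2 (bottom) in each square of side 20 in both sections, in CPM on a log colour scale that is the same for both sections of a row, with grey for 0 counts. H2-K1 fills both sections and is brighter in the KO-labelled section. H2-Q2 has counts in 269 of 1236 squares of the WT-labelled section and in all 2056 of the other.

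Position in the wall was also read as distance from the nearest smooth-muscle-rich square. H2-K1 in the KO-labelled section rose from 3157 CPM in those squares to 4520 CPM up to 40 units away and 5992 CPM at 40 to 80 units, and was 5680 CPM at 80 to 120 units and 4917 CPM beyond 120. In the WT-labelled section the same 5 steps were 1900, 2187, 2353, 2536 and 2259 CPM, highest at 80 to 120 units. H2-Q2 went through 350, 565, 717, 690 and 753 CPM in the KO-labelled section and through 6.45, 8.06, 10.1, 16.6 and 8.87 CPM in the other.

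The difference between the sections was also taken within each of the 17 kinds of square, as log2 ratios. Nlrc5 ran from -2.96 in B-cell-rich to -1.001 in Paneth-rich squares. H2-Q1 ran from 4.15 to 9.24, H2-Q2 from 4.89 to 6.84 and H2-T3 from 5.43 to 7.91, each lowest in squares rich in villus tip markers. The upper ends for H2-Q1 (interval 6.76 to 14.5) and H2-T3 (5.42 to 13.2) rest on 1 count each in the WT-labelled section, and 0 counts there made the endothelium-rich value of H2-Q1 and the neutrophil-rich and adipocyte-rich values of H2-T3 lower bounds. H2-K1, H2-D1 and B2m were above 0 in all 17 kinds, which share squares, and how many of all genes were so was not counted. The totals without defensin and other abundant genes, which lowered H2-K1 and B2m between whole sections, were not tried within squares. The ratios of H2-K1 (0.25) and H2-D1 (0.08) were smallest in adipocyte-rich squares. That of B2m was smallest in macrophage-rich and dendritic-rich squares (0.03), with an interval that includes 0 (-0.009 to 0.072). In these squares the WT-labelled section was high. All of them were largest in goblet-rich squares (1.81, 1.44 and 1.89), where the WT-labelled section was second lowest of the 17 for each gene. Of the goblet-rich squares, 6.45% were also enterocyte-rich in the WT-labelled section and 34.5% in the KO-labelled section. Tap1 was above 0 in 3 of 17, from -0.93 in B-cell-rich to 0.54 in goblet-rich squares. In enterocyte-rich squares 7 of 10 genes were higher by 2-fold or more and 1 lower, against 19% and 28.2% of 7681 genes there.

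Squares were then ranked by enterocyte share and cut into 5 bands of equal number. From the lowest to the highest band of the KO-labelled section, H2-Q2 went from 318 to 988 CPM (3.11-fold), H2-Q1 from 78.3 to 224 CPM (2.86-fold), H2-T3 from 63.2 to 154 CPM (2.44-fold), B2m from 1720 to 4147 CPM (2.41-fold) and H2-K1 from 3108 to 6513 CPM (2.10-fold). All genes but Nlrc5 rose at each step, Tap1 by the least in all (1.64-fold), and Nlrc5 fell to 0.63 of its first level without falling at every step. In the WT-labelled section, whose bands cover a far lower range of enterocyte share, H2-Q1 rose at each step from 0.130 to 5.91 CPM (1 count in the lowest band). H2-T3 rose 4.30-fold and H2-Q2 3.43-fold between the end bands but not at each step. Tap1 (1.49-fold) and H2-K1 (1.31-fold) also rose at each step, and H2-D1 was 1.26-fold higher in the highest band. B2m (1.03-fold), Tap2 (1.06-fold) and Tapbp (1.04-fold) were nearly level across those bands.

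**Figure D5:**
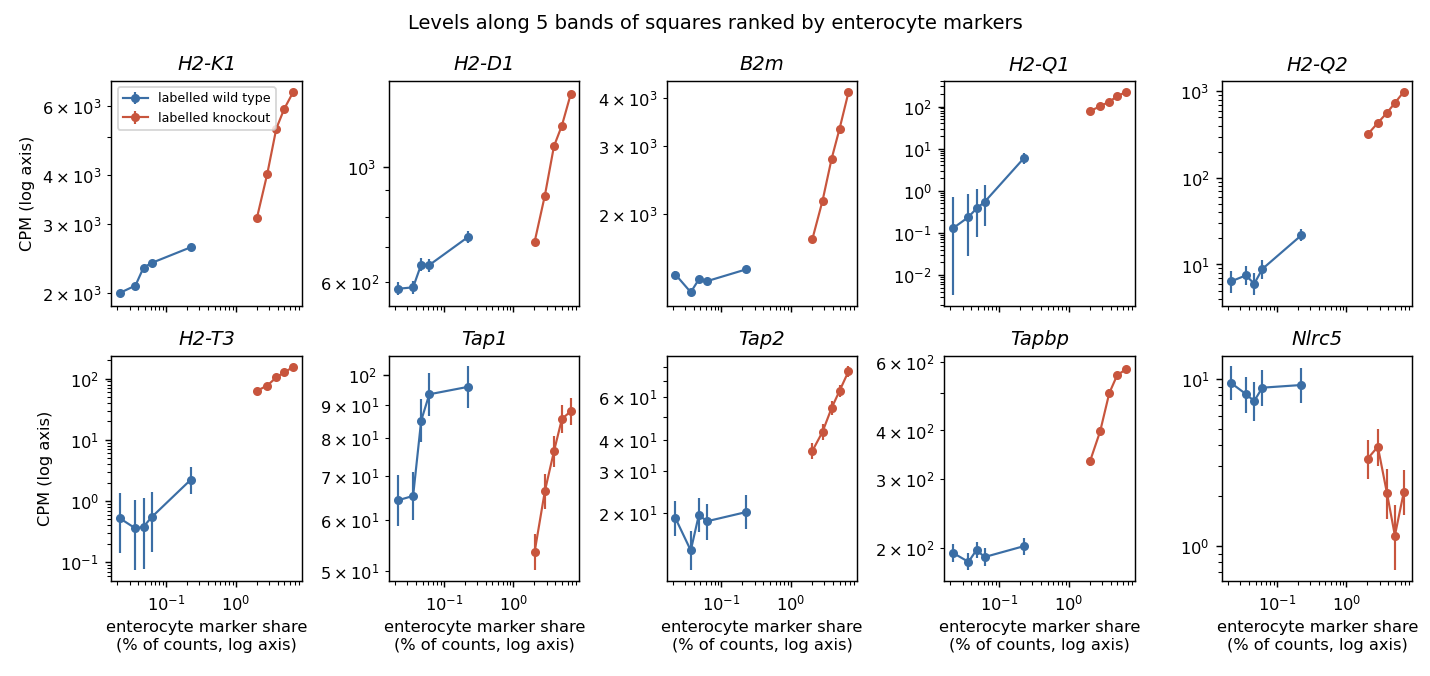
Level of each gene (CPM, log axis, with exact Poisson intervals at 95%) in 5 bands of squares against the enterocyte marker share of the band (percent of counts, log axis). The sections do not share any range of enterocyte share. Along the bands of the KO-labelled section 9 genes rise, and how many of all genes do so was not counted. In the WT-labelled section H2-Q1, H2-Q2 and H2-T3 rise mainly in the highest band.

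Set against enterocyte markers rather than all counts, the nonclassical chains differed less between the sections than in CPM. Over all squares their intervals still did not overlap. This ratio, like that to H2-K1 below, was chosen after seeing the data. It depends on which markers are summed. The marker with the most counts was Mgam (log2 ratio 3.37) in the WT-labelled section and Apoa1 (5.94) in the KO-labelled section. The part of enterocyte content in the differences was not tested. Over all squares there were 12.9 H2-Q2 counts per 1000 enterocyte marker counts in the WT-labelled section (11.6 to 14.3) and 14.95 in the KO-labelled section (14.8 to 15.1). H2-Q1 had 1.82 (1.37 to 2.37) against 3.48 (3.42 to 3.54) and H2-T3 1.03 (0.697 to 1.46) against 2.57 (2.52 to 2.62). In enterocyte-rich squares alone H2-Q1 had 2.93 (2.11 to 3.97) against 3.36 (3.23 to 3.49), while H2-Q2 had 8.73 (7.26 to 10.4) against 14.97 (14.7 to 15.2) and H2-T3 1.05 (0.586 to 1.73) against 2.26 (2.15 to 2.37). Across the 17 kinds of squares of the KO-labelled section the ratios ran from 14.3 to 16.2 for H2-Q2, 2.997 to 4.18 for H2-Q1, 1.82 to 3.06 for H2-T3 and, for the classical H2-K1, 91.0 to 155.1. Per 1000 H2-K1 counts, H2-Q2 had 11.2 in enterocyte-rich and 2.19 in macrophage-rich and dendritic-rich squares of the WT-labelled section, against 101 to 164 over the kinds of squares in the KO-labelled section.

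In the KO-labelled section H2-T3 parted from the classical chains and H2-Q2 between squares rich in villus tip markers and squares rich in villus bottom markers. There, 198 squares rich in villus tip markers and 198 rich in villus bottom markers were compared, leaving out 8 that were both. This comparison was chosen after seeing the data. The villus bottom list held 1.32% of the counts of that section, mostly from Reg3b (10628 CPM) and Reg3g (2215 CPM). The bottom squares are thus mainly squares high in these genes, and their place on the villus was not measured. Enterocyte markers held 6.51% of counts in the tip squares and 5.16% in the bottom squares. H2-K1 had 7359 CPM in the tip squares and 5072 CPM in the bottom squares, a log2 ratio of 0.54, and was higher in the tip squares in all 4 parts of the section (0.42 to 0.64). H2-D1 (0.57), B2m (0.51) and H2-Q2 (0.40) were likewise higher in the tip squares, each in all 4 parts. H2-Q1 was 0.16 (0.06 to 0.26) but ran from -0.21 to 0.36 over the parts. H2-T3 had 118 CPM in the tip squares and 144 CPM in the bottom squares, a log2 ratio of -0.29 (-0.41 to -0.17). Its ratios in the 4 parts were -0.58, -0.36, -0.22 and -0.32, with an interval that includes 0 in part 3. Tap1 was -0.12 (-0.26 to 0.03) and also below 0 in all 4 parts (-0.20, -0.39, -0.25 and -0.07), with intervals that include 0. Tap2 was 0.15 (-0.01 to 0.32). In the WT-labelled section, with 91 squares of each kind, Tap1 was instead higher in the tip squares, at 0.54 (0.28 to 0.80), and above 0 in all 4 parts. H2-K1 (0.62), H2-D1 (0.59) and B2m (0.54) were higher in the tip squares there too. H2-T3 had only 2 counts in the tip squares and 3 in the bottom squares of that section. Enterocyte markers held 0.150% of counts in its tip squares and 0.0694% in its bottom squares.

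Finally, the genes whose levels over squares were most like each member were listed, for genes with 5000 or more counts in a section and as Pearson correlations of log2(CPM + 100), at r of 0.5 or more. Squares of a section share a library and depth, so these values are a description. In the WT-labelled section (1138 genes, 1236 squares) H2-K1 was nearest to B2m (0.64), Trim30a (0.62) and Tlk1 (0.58), H2-D1 to H2-K1 (0.57), and B2m to H2-K1, to the class II invariant chain Cd74 (0.52) and to the lipoprotein Apoe (0.51), which macrophages express. The median r over all genes was 0.12 for H2-K1 and 0.06 for B2m. In the KO-labelled section (3042 genes, 2056 squares) the nearest genes were of the absorptive epithelium. H2-K1 was nearest to the epithelial mucin Muc13 (0.89), Spink1 (0.88) and the lipoprotein Apob (0.88), B2m to Apoa1 (0.89), Spink1 (0.89) and H2-K1 (0.86), H2-D1 to H2-K1 (0.82), B2m (0.80) and Enpp3 (0.79), and H2-Q2 to Apoa1 (0.80), the brush border peptidase Anpep (0.79) and Apoa4 (0.78). H2-Q1 was nearest to Anpep (0.59), Mttp (0.59) and Fabp2 (0.58), and Tapbp to H2-K1 (0.68), Spink1 (0.65) and Apoa1 (0.64). Apoa1, Apoa4, Apob, Anpep, Mttp and Fabp2 are also on the enterocyte marker list. For H2-T3, Tap1 and Tap2 no gene reached 0.5 in that section.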

How the data were processed

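Per the labels' protocols, frozen sections were sequenced on an array of barcoded positions, aligned to an image and limited to tissue. The authors deposited raw counts for each gene at each barcode, and these were not normalised further. Alignment, counting and the collapsing of reads by molecular identifier are not stated there. The build GRCm38 comes from the submitters' processing notes. The 94 features with a repeated symbol were added together, and CPM were computed per section or set of squares. CPM carry exact Poisson intervals, and ratios exact conditional binomial (Clopper-Pearson) intervals, at 95%. The floor for 0 counts was 3 counts, 0.0753 and 0.0334 CPM in the sections. Squares needed 15 barcodes and 5000 counts, tiles 200 barcodes. Samples were grouped by their genotype label. The 10 genes, the pathway lists and the marker lists were chosen with earlier results of these data known. All 10 genes are named, and of each pathway list the gene with the most counts and up to 4 with the largest log2 ratio among those with 50 or more counts; others are said to be chosen after their values were seen. Alternatives covered scaling, barcodes, parts, square size and thresholds. The interval code was tested on simulated data. Python 3.11.15, numpy 2.4.6, scipy 1.17.1 and pandas 2.3.3 were used.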

Additional observations from a re-analysis of the deposited data

How the results depend on the processing

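With 1 section per genotype nothing here shows how far animals differ, and depth limits mainly H2-Q1, H2-T3 and Nlrc5, which have 31 to 342 counts in the WT-labelled section. No paired analysis was possible because each genotype has 1 section. The number of genes at least 2-fold higher (7) or lower (1) was the same without each of the 8 parts, and their median log2 ratio ran from 1.17 to 1.26, with 15.3% to 16.5% of all genes higher and 18.8% to 20.9% lower. Scaling by the median of ratios, which shifts all log2 ratios by 0.18, gave 18.8% higher and 15.6% lower. Totals without defensin, ribosomal protein, immunoglobulin and haemoglobin genes gave 11.6% and 29.1%, squares at or above the median epithelial share 14.0% and 25.8%, genes with 1000 or more counts 17.2% and 16.0%, and genes with 20 or more counts 23.8% lower. The reversals were Tap1 (0.076) under the median of ratios and, for Nlrc5 in enterocyte-rich over other squares of the WT-labelled section, squares of side 40 (-0.012) and the highest 5% (-0.066), and for Tapbp there, parts 1 to 3 alone (-0.082), where 2 genes passed 2-fold against 3. In part 4 alone the same ratio reversed for B2m (-0.054), Tap2 (-0.045) and Nlrc5 (-0.308). Both settings by part were chosen after seeing the data. Of the values for single genes under the alternatives, 176 stayed inside the interval of the main setting, 97 left it without a change of sign and 7 reversed. With the highest 5%, 1 gene passed 2-fold in enterocyte-rich squares of the KO-labelled section (0 otherwise). By tiles of side 100, 3 genes (H2-Q1, H2-Q2 and H2-T3) did not overlap between sections, against 9 by parts. Overlap was not counted over all genes, so neither number can be read as particular to these genes. With squares of side 40, r of H2-K1 and B2m was 0.73 and 0.89, against 0.64 and 0.86. A common threshold of enterocyte share gave no enterocyte-rich squares in the WT-labelled section, and so no value there.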
